A study of Homo sapiens with 3 samples.

Results

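Of the 2289 ARID1B-bound regions on chromosomes 1 to 22 and X, 846 (37.0%) lay inside the body of a protein-coding gene and more than 10000 bp from every annotated end of every protein-coding gene. They are called distal intragenic regions here, and the gene that holds a region is called its host. To find them, peaks of both deposited lists that shared 1 bp or more were merged, and every merged region was placed against the RefSeq genes of GRCh38.p14, the assembly behind build hg38. The choice used position alone, so their scores and their presence in each replicate were free to vary. A further 285 distal regions lay in long noncoding RNA (lncRNA) genes only, 528 lay outside all annotated genes and 26 lay in other annotated genes only. Another 303 were within 1000 bp of a protein-coding gene end, and 301 were between 1000 and 10000 bp from one.

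The regions came from chromatin immunoprecipitation followed by sequencing (ChIP-seq) of ARID1B in HEK293FRT, an established line derived from human embryonic kidney cells. The series held 3 samples from this 1 line: 2 ARID1B ChIP replicates, with 1792 and 1820 deposited peaks, and 1 input, which was not analysed here. The labels name no genotype change and no treatment. The sample titles do not say whether the ARID1B was endogenous or introduced. The labels do not state whether the replicates were separate cultures, so the spread between them may be technical. Peak lists hold no RNA levels, so neither the identity of the line nor the activity of a host gene could be checked, and the depth of the libraries is unknown.

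ARID1B is a subunit with an ARID DNA-binding domain in the canonical BAF (SWI/SNF) complexes, which use ATP to slide and evict nucleosomes and so open DNA to other proteins. BAF complexes with ARID1A or ARID1B are known mainly at enhancers, stretches of regulatory DNA that can lie far from the promoter they act on and often within introns of long genes. The gene that holds an enhancer need not be the gene it regulates, and a host is used here only as a position.

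Some of the regions lay at a start of transcription that the outer ends of a gene do not show, and some sequences are printed to show what such places hold. A RefSeq-derived table lists, for most genes, windows of 250 bases before and 50 bases after each start, including starts within the gene. It has no windows for 1 chromosome, which leaves 808 of the 846 regions, and it lists 463 of the 562 hosts. Of these 808 regions, 9 (1.11%, exact 95% interval 0.51 to 2.1%) overlapped a listed window, against 10.5% of all regions. Being far from gene ends was part of the choice, so this share is a description. A host without listed windows could show no start of its own, so the count may be low. The same share was 0.789% for distal regions outside genes, 6.37% in lncRNA genes only and 60.5% at gene ends. In 8 of the 9 the window was an alternative start of the host itself. Of these 8, 4 were found in both replicates, 4 in replicate 2 alone and 0 in replicate 1 alone. The 4 found in both replicates are shown as the 250 bases before the start, 5′ to 3′ on the strand of the gene, from RefSeq on GRCh38.p14, with the bases inside the ARID1B region in capitals.
ROBO1, chr3:79019460-79019709, minus strand: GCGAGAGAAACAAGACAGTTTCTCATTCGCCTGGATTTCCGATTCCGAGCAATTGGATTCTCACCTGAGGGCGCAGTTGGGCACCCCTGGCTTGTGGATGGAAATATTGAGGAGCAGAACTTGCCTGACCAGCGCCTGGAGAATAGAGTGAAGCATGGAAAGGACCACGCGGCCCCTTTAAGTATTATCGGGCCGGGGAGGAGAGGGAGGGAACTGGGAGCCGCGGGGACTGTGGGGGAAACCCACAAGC
RBPJ, chr4:26320764-26321013, plus strand: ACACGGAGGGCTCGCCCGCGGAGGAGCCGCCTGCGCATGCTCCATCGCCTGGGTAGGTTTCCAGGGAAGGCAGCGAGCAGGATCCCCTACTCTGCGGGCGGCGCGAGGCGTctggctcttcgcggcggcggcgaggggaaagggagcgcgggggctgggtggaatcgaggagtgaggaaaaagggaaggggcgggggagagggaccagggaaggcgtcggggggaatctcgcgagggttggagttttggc
ELAVL2, chr9:23826241-23826490, minus strand: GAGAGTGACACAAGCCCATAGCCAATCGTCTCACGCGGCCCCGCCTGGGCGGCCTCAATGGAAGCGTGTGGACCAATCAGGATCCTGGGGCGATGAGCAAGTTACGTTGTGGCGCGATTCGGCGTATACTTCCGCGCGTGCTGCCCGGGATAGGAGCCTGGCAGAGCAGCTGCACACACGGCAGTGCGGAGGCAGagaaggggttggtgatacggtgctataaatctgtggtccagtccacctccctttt
VAV3, chr1:107688500-107688749, minus strand: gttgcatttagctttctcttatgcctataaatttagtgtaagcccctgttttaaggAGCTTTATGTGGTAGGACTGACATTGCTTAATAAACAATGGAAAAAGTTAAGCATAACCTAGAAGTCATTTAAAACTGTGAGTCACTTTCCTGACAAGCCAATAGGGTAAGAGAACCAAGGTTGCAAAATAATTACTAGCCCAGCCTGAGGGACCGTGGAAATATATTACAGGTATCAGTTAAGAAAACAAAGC
The whole ROBO1 stretch lay inside its region, as did 111 of the 250 bases for RBPJ, 195 for ELAVL2 and 194 for VAV3.

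These starts lay deep inside their hosts. The ROBO1 start was 749 kb from the first base of the gene, the VAV3 start 277 kb, the RBPJ start 216 kb and the ELAVL2 start 24.4 kb. ROBO1 is an axon guidance receptor, RBPJ is the DNA-binding factor of Notch signalling, ELAVL2 is a neuronal RNA-binding protein and VAV3 is a guanine nucleotide exchange factor. The peak scores were 39 in replicate 1 and 75 in replicate 2 for ROBO1, 36 and 84 for RBPJ, 56 and 73 for ELAVL2 and 65 and 46 for VAV3. In this order, replicate 1 before replicate 2, pairs of scores are given throughout. None of the 4 pairs was above the upper quartile of its list, 121 in replicate 1 and 125 in replicate 2. The score is a whole number that the authors gave each peak; the sources used here do not give its scale, and it was compared only within a list or between the paired peaks of a region.

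In base composition the 4 stretches differed among themselves. The RBPJ stretch was 69.6% G or C with 26 CpG, ELAVL2 60.4% with 19, ROBO1 56.8% with 12, and VAV3 37.2% with 1, beside a median of 58% over all 35115 listed windows. The stretches were searched on both strands for GGGCGG, the core of the GC box bound by SP factors, for CCAAT, the box bound by NF-Y, for CATTCC, the core bound by TEAD factors, and for TGANTCA, the AP-1 site. RBPJ held GGGCGG at 2 places and ELAVL2 at 1. CCAAT was found at 2 places in ELAVL2 and at 1 each in ROBO1 and VAV3. TGANTCA was found once, in VAV3, and CATTCC in none of the 4. Over all listed windows of the same length, 42.6% held GGGCGG, 32.0% CCAAT, 11.9% CATTCC and 6.57% TGANTCA, so a match in 1 stretch is a description only.

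The other 4 alternative starts carried a peak in replicate 2 alone. The highest was in PIK3R3, a regulatory subunit of phosphoinositide 3-kinase, with a score of 176. TJP3 (a tight junction protein) scored 54, RARB (a retinoic acid receptor) 34 and ACIN1 (a splicing-associated protein) 15. The remaining region, in GPC5, overlapped listed starts of the antisense lncRNA GPC5-AS1, with scores of 127 and 88. The ELAVL2 region also overlapped a start of the lncRNA LOC105375992, on the opposite strand. In all, 46 of the 808 regions (5.69%) lay within 10000 bp of a listed protein-coding start, and 12 lay within 1000 bp. These regions were picked out after their positions had been seen.

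A small RNA gene sat wholly inside 1 of the 15 top-ranked regions, ranked by the lower of their score percentiles in the lists. MIR3666 begins 10 bp from the edge of the region chr7:114653335-114653962, in FOXP2, a forkhead transcription factor, which scored 336 in replicate 1 and 300 in replicate 2. The hairpin (chr7:114653345-114653455, plus strand) and the mature RNA (chr7:114653373-114653393) are shown from RefSeq on GRCh38.p14, with the mature sequence in capitals in the hairpin and the seed, bases 2 to 8, in capitals in the mature RNA.
MIR3666 hairpin: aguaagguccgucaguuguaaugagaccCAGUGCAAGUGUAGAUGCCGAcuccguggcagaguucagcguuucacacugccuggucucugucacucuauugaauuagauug
hsa-miR-3666: cAGUGCAAguguagaugccga
It was the single miRNA hairpin, of 1562 listed, that overlapped a distal intragenic region. Peak lists do not show whether it is transcribed in these cells.

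Both replicates held a peak in 483 of the 846 regions (57.1%, exact 95% interval 53.7 to 60.5%). Over all regions on these chromosomes 57.3% were in both, so the share was near that background. Replicate 1 had peaks in 706 of them and replicate 2 in 623, with 223 (26.4%, 23.4 to 29.5%) in replicate 1 alone and 140 (16.5%, 14.1 to 19.2%) in replicate 2 alone. These intervals cover counting error only. The share in both was 60.0% in lncRNA genes only, 59.5% outside genes and 54.1% at gene ends. None of these differences passed the test (Fisher's exact test, two-sided, Benjamini-Hochberg over 9 comparisons, adjusted p = 0.522 for each). The odds ratios were 0.887 (95% interval 0.668 to 1.18), 0.907 (0.723 to 1.14) and 1.13 (0.858 to 1.48), which leave room for differences of either sign.

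The lists did differ in which single-replicate regions they added. Of the 363 distal intragenic regions found in 1 replicate, 140 (38.6%, 33.5 to 43.8%) came from replicate 2, beside 51.4% of all single-replicate regions. At gene ends replicate 2 gave 120 of 139 (86.3%, 79.5 to 91.6%). The odds ratio was 0.0999 (0.0555 to 0.172; adjusted p = 2.83e-22 by the same Fisher's exact test). Against the other distal classes the difference was smaller. Replicate 2 gave 48.2% in lncRNA genes only (odds ratio 0.674, 0.431 to 1.05) and 46.3% outside genes (0.730, 0.511 to 1.04), both with adjusted p = 0.241 by Fisher's exact test. The contrast that passed was the one with gene ends. Regions are not replicates of a condition, so its p describes these 2 lists.

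**Figure D1:**
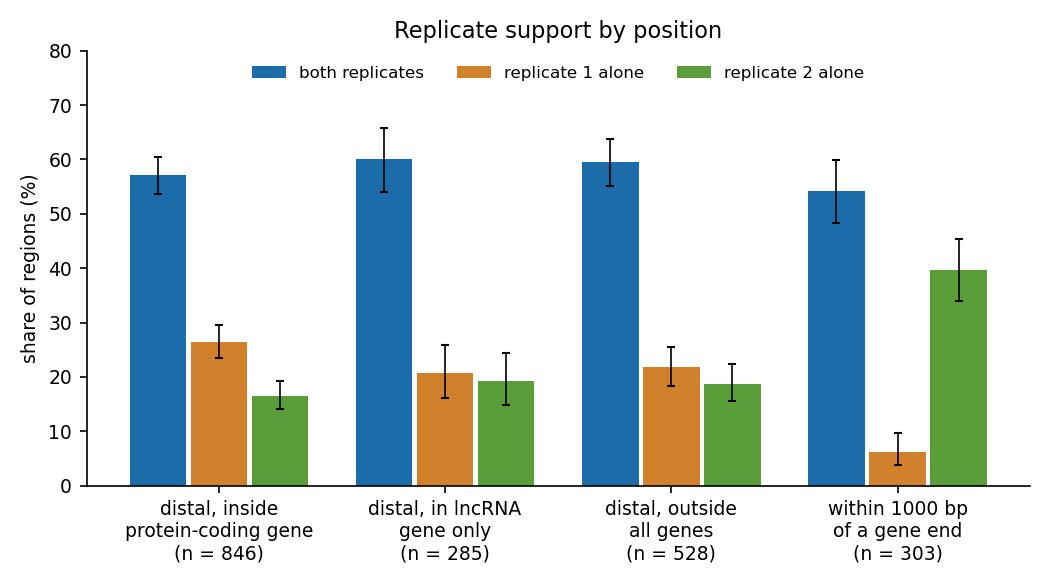
Share of regions (%) found in both replicates, in replicate 1 alone and in replicate 2 alone, in 4 position classes with the number of regions under each; bars are shares and lines exact 95% intervals of counting error. Among distal intragenic regions replicate 1 alone (26.4%) exceeded replicate 2 alone (16.5%), while at gene ends replicate 2 alone reached 39.6% and replicate 1 alone 6.27%.

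Regions of a single replicate were narrower and lower in score. Their median width was 232 bp for replicate 1 alone and 230 bp for replicate 2 alone, against 371 bp for regions in both. Regions in both had median scores of 98 in replicate 1 (quartiles 60 and 156.5) and 88 in replicate 2 (60 and 152), and regions of replicate 1 alone a median of 49, of replicate 2 alone 52. Merging 2 peaks can only widen a region, so the widths of the groups are not like for like. The highest scores in replicate 1 alone were 137 in STAU2, 132 in UBE2E1 and 127 in SDK1. In replicate 2 alone they were the PIK3R3 start (176), 147 in IRAG1 and 112 in NRP1, a receptor for semaphorins and VEGF.

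The share of regions with a partner in the other list followed their place in their own list. Each list was split at its median and quartiles into 4 score classes. From the lowest to the highest class of the replicate 1 list, 35.3, 57.0, 77.8 and 97.8% of its distal intragenic regions also had a replicate 2 peak (139, 207, 180 and 180 regions). In replicate 2 the shares with a replicate 1 peak were 59.0, 63.4, 87.7 and 98.8% (144, 164, 155 and 160 regions). In the lowest class the intervals did not meet, at 27.3 to 43.8% for replicate 1 and 50.5 to 67.1% for replicate 2.

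The scores of these regions were spread like those of the full lists. In replicate 1 they ran from 10 to 1537 with a median of 74 (quartiles 51 and 121), and in replicate 2 from 11 to 1642 with a median of 75 (51 and 127). The medians of the full lists were 74 and 75. At or above the upper quartile of their list lay 180 of 706 regions (25.5%) in replicate 1 and 160 of 623 (25.7%) in replicate 2. Of the 483 regions in both replicates, 244 (50.5%, 46.0 to 55.1%) scored at or above the list median in both lists, beside 49.4% of all regions in both. The same share was 49.7% in lncRNA genes only, 52.9% outside genes and 45.1% at gene ends, with odds ratios of 1.03 (0.718 to 1.49), 0.910 (0.678 to 1.22) and 1.24 (0.857 to 1.80). None of these passed (adjusted p = 0.859, 0.632 and 0.522 by Fisher's exact test).

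Scores of paired peaks ran together across the range. Over the 481 regions made of exactly 1 peak from each list, Spearman's rank correlation was 0.735 and Pearson's r of log2 scores was 0.759; the regions share their 2 libraries, so these are descriptions without a test. Replicate 2 was higher in 205, replicate 1 in 266, and 10 were equal. The median log2 ratio of replicate 2 to replicate 1 was -0.09 (quartiles -0.54 and 0.31), and 399 pairs (83.0%) lay within 2-fold.

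Among the 82 pairs beyond 2-fold were regions that a single list would rank very differently. In LRPPRC, which encodes a mitochondrial RNA-binding protein, the scores were 36 and 125, a log2 ratio of 1.80. ADAMTS16, a secreted metalloprotease gene, scored 23 and 75, and ZSWIM6 36 and 109. In the other direction, ADARB1, an RNA-editing enzyme gene, scored 135 and 30, a log2 ratio of -2.17. DNAH8, an axonemal dynein gene, scored 108 and 30, and DPT, for dermatopontin of the extracellular matrix, 75 and 21. These 6 were the extremes and were chosen after their values were seen.

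**Figure D2:**
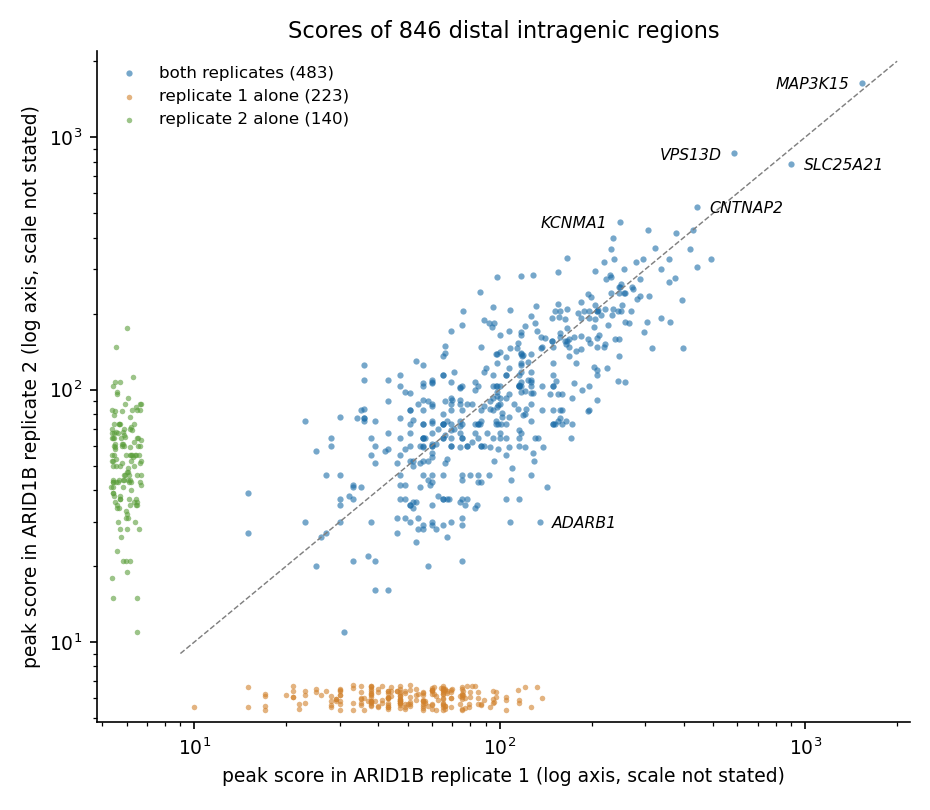
Peak score in replicate 1 against peak score in replicate 2, both on log axes, for the 846 distal intragenic regions; blue points are the 483 regions in both replicates, and orange (223) and green (140) points, spread at random along the axis edge where they have no score, are regions of 1 replicate. The dashed line marks equal scores; MAP3K15 stands apart at 1537 and 1642, and ADARB1 shows the largest fall, 135 to 30.

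The top-ranked distal intragenic regions were inside genes with quite different roles. MAP3K15, a MAP kinase kinase kinase gene, held the top peak of both lists (chrX:19451957-19452459, 1537 and 1642), 63.0 kb from the nearest gene end. Below it the order is among distal intragenic regions only, as scores within 1000 bp of gene ends reached 1210 in replicate 1 and 1461 in replicate 2. Next came SLC25A21, a mitochondrial oxodicarboxylate carrier gene (chr14:36834938-36835670, 902 and 785), whose region was 156 kb from its nearest gene end, that of PAX9. VPS13D, a lipid transfer protein gene, scored 586 and 863 (chr1:12478048-12478696). Both replicates scored these 3 regions above every other distal intragenic region.

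The next region was in CNTNAP2, a neurexin-family adhesion gene (chr7:146655863-146656351, 443 and 528), 539 kb from the nearest gene end. LRMDA, a gene linked to melanocyte differentiation, scored 429 and 430 (chr10:75613642-75614504), and SAXO1, for a protein of axonemal microtubules, 378 and 416 (chr9:18976479-18977268). In these the replicates scored within 2-fold of each other. SYBU (420 and 360), for a kinesin linker, ESRRB (322 and 365; chr14:76486273-76486692), an orphan nuclear receptor gene, and GLP1R (305 and 428; chr6:39059671-39060128), the receptor of glucagon-like peptide 1, followed.

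The other 6 of the 15 top-ranked regions included the FOXP2 region and a second SLC25A21 region (chr14:36955889-36956503, 294 and 328). A region in TEX14, a gene of germ cell bridges, also lay inside IGBP1C (chr17:58679163-58679732, 493 and 330). It holds the annotated small nuclear RNA pseudogene RNVU1-34, and the placement of reads from such copies is uncertain. URI1, for a prefoldin-like chaperone, held the widest of all 846 regions at 943 bp (chr19:30003851-30004793, 357 and 330). RAD51B (chr14:68140138-68140794, 443 and 306), a recombination repair gene, and GMDS (chr6:2028598-2029106, 280 and 319), for the first enzyme of GDP-fucose synthesis from GDP-mannose, completed the 15. The median width over all members was 301 bp, with a lowest value of 191 bp.

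The 846 regions lay in 562 hosts, which is 5.22% of the 10765 protein-coding genes with any sequence more than 10000 bp from every gene end. With regions of both replicates only, 356 genes (3.31%) were hosts. A single region was found in 402 hosts (71.5%), 2 in 97, 3 in 33 and 4 or more in 30. Those 30 hosts held 162 regions (19.1%). There were 11 regions inside a pair of overlapping hosts, among them some in RANBP2, whose annotated span of 1123 kb also covers SH3RF3 and EDAR. That span was used as annotated and was not checked, and RANBP2 was counted with 5 regions on it.

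The highest number, 11, was reached by 3 hosts. In GMDS (chr6:1623806-2245605) 9 of the 11 were in both replicates, with scores from 54 to 396 in replicate 1 and from 44 to 319 in replicate 2. RAD51B (chr14:67819779-68683096) had 6 in both, 4 in replicate 1 alone and 1 in replicate 2 alone. AUTS2 (chr7:69598475-70793506), for a regulator tied to Polycomb complexes, had 6, 3 and 2. SLC25A21 had 8, of which 6 were in both and 2 in replicate 1 alone.

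ZNF608, a zinc finger gene, had 7 regions, all in both replicates, in a host of 112 kb (chr5:124636915-124748824). Their scores ran from 68 to 288 in replicate 1 and from 37 to 328 in replicate 2. At 76.2 regions per Mb of sequence beyond 10000 bp from gene ends, it ranked first among the 30 hosts with 4 or more. SEMA3C, for a secreted semaphorin, was next with 31.3 per Mb from 5 regions, of which 3 were in replicate 1 alone. Many of these stood close together: with regions at most 10 kb apart joined, ZNF608 had 3 and SEMA3C 2, and SEMA3C also had 2 without replicate 1. GMDS had 18.3 per Mb and ranked 5, SLC25A21 16.9 (rank 6), RAD51B 13.0 (rank 8) and AUTS2 9.36 (rank 14). The order by density therefore differed from the order by number.

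There were 5 hosts with 6 regions. FRMPD4 and NKAIN2, genes of a postsynaptic scaffold and of a partner of the sodium pump, had all 6 in both replicates, and PDE4D, for a cAMP phosphodiesterase, 5 of 6. MECOM, a zinc finger transcription factor gene, and LRMDA had 3 of 6 in both. The opposite case was PRKG1, the gene of a cGMP-dependent kinase, with 4 regions, all in replicate 1 alone, at scores of 47, 47, 51 and 116. In all, 206 of the 562 hosts had no region that was in both replicates.

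**Figure D3:**
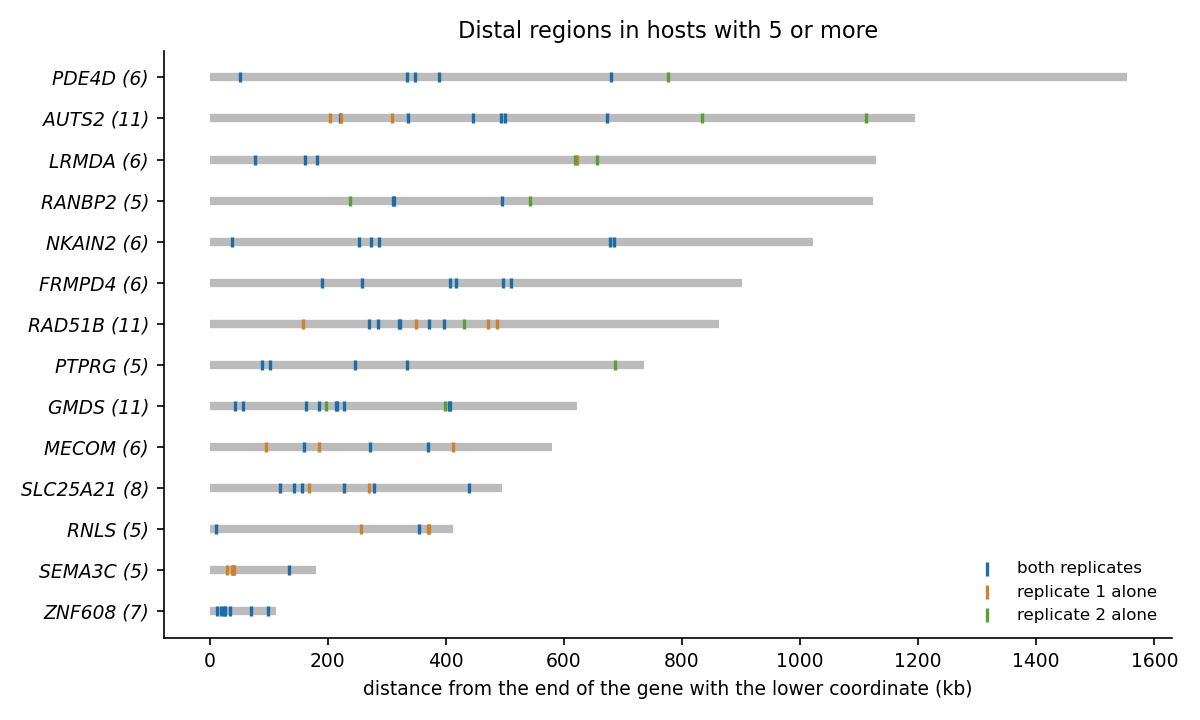
Positions of distal intragenic regions along the hosts with 5 or more, as distance in kb from the gene end with the lower coordinate; grey bars are gene bodies to scale and ticks are regions, coloured by replicate support. All 7 ticks of ZNF608 are in both replicates and lie within 85.7 kb, and the 11 of AUTS2 are spread over 908 kb.

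Neighbouring regions in 1 host often stood close together. Joining regions of the same host whose distance was within 100 kb left 490 (57.9%) alone and put 356 (42.1%) into 136 groups. Of these groups, 50 had 3 or more regions. The largest was in RAD51B, with 10 regions in 218 kb. ZNF608 and SLC25A21 had 7 each, in 85.7 and 159 kb, GMDS 6 in 64.2 kb and MECOM 6 in 316 kb. CNTNAP2 had its 2 regions within 2.3 kb of sequence, scoring 232 and 242 in one and 443 and 528 in the other.

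Hosts were long genes. Their median length was 224 kb (quartiles 120 and 389 kb), against 59.6 kb (34.5 and 121 kb) over all 10765 genes that could hold a region. The share of genes that were hosts was 0.553% at 20 to 50 kb, 2.83% at 50 to 100 kb, 7.68% at 100 to 200 kb, 19.0% at 200 to 500 kb, 29.8% at 500 to 1000 kb and 37.7% above that. A long gene has more sequence that can qualify, so the share was also set against that sequence.

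Per Mb of qualifying sequence the steps were much smaller. The same 6 length classes had 0.453, 0.70, 0.877, 1.03, 0.998 and 0.759 regions per Mb. The shortest class was the lowest in each list, at 0.344 for replicate 1 and 0.399 for replicate 2. The class of 200 to 500 kb was the highest in replicate 1 (0.883), and the class of 500 to 1000 kb in replicate 2 (0.734).

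**Figure D4:**
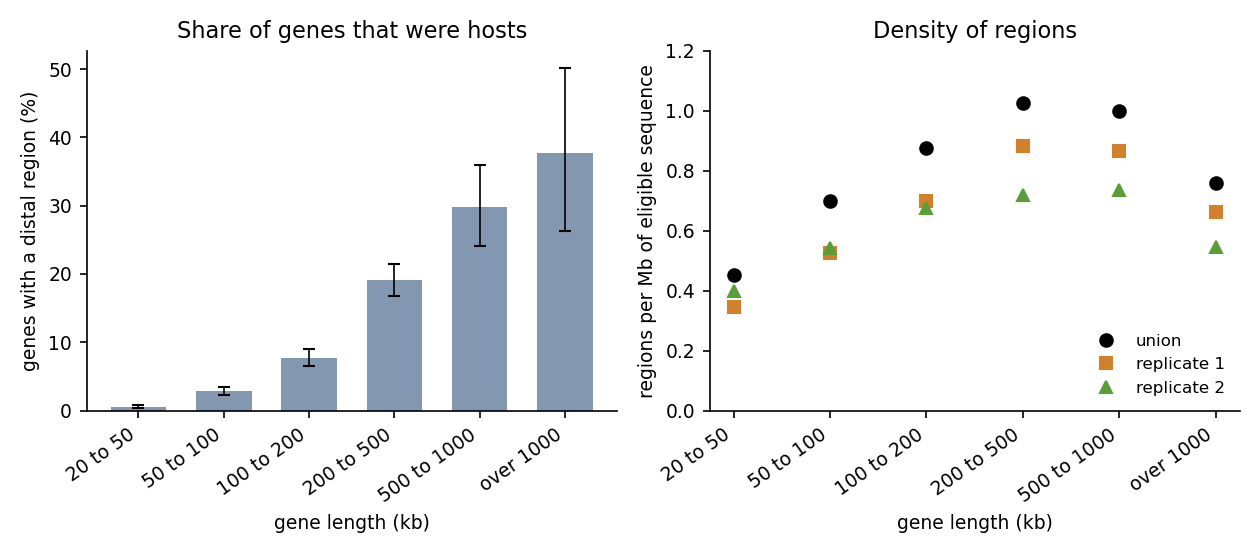
Left, share of protein-coding genes (%) with a distal intragenic region by gene length in kb, with exact 95% intervals of counting error; right, regions per Mb of sequence more than 10000 bp from every gene end, for the union and for each replicate. The share rises from 0.553 to 37.7% while the density stays between 0.453 and 1.03 per Mb.

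The longest host was CNTNAP2 at 2304 kb. PTPRD, a receptor phosphatase gene of 2299 kb, had 1 region in replicate 1 alone (score 69), and DMD, the dystrophin gene of 2220 kb, had 1 region with scores of 39 and 60. At the other end were FOXO6, a forkhead factor gene of 22.2 kb with a replicate 2 peak of 73, GDNF (27.4 kb; 98 and 85), the neurotrophic factor that drives ureteric bud growth, and OVCH2 (27.8 kb; 95 and 103). Hosts of regions in replicate 2 alone were shorter, with a median per region of 208 kb, than those of replicate 1 alone (296 kb) and of both (301 kb).

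Within the hosts the regions were far from the ends. The median distance to the nearest protein-coding gene end was 62.9 kb (quartiles 31.6 and 140 kb) and the largest 823 kb. It was 63.0 kb for regions in both replicates, 69.7 kb for replicate 1 alone and 50.3 kb for replicate 2 alone. By distance, density was 0.610 per Mb at 10 to 20 kb, 0.811 at 20 to 50 kb, 1.01 at 50 to 100 kb, 1.06 at 100 to 200 kb, 1.05 at 200 to 500 kb and 0.703 beyond, where only 16 regions lay.

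Position along the host was measured for regions with a single host whose strand was listed, which came to 707 regions in 451 hosts. Each host was divided into 4 stretches of equal length from its start to its far end. The stretch by the start held 144 regions, the next 220, the next 219 and the last 124. Those stretches held 23.4, 26.6, 26.6 and 23.4% of the qualifying sequence of these hosts, so density was 4.25, 5.71, 5.70 and 3.66 per Mb. Only genes that hold a region entered here, so these levels are not comparable with the densities over all qualifying sequence. Both lists were lower in the outer stretches, with 2.80, 4.28, 4.16 and 2.69 per Mb in replicate 2 and 3.74, 4.83, 4.66 and 3.01 in replicate 1.

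The 3 members nearest the limit of 10000 bp scored below the medians of their lists. Just inside it were a YAP1 region at 10041 bp (60, replicate 1 alone), a NOTCH2NLA region at 10149 bp (21, replicate 2 alone) and a NOTCH2 region at 10164 bp (64, replicate 2 alone). NOTCH2 and NOTCH2NLA are near-identical over part of their length, so the placement of reads there is uncertain. Just outside were KDM4C at 9999 bp (65 and 64), NPLOC4 at 9941 bp (72, replicate 2 alone) and a region in DCAF6 and MPC2 at 9896 bp (58 and 93). Members slightly further in could score high, as the GLP1R region at 10890 bp did (305 and 428).

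Sequence inside protein-coding genes and more than 10000 bp from gene ends came to 958 Mb and held 0.883 regions per Mb (0.737 in replicate 1, 0.650 in replicate 2). Distal sequence in lncRNA genes only (328 Mb) held nearly as many, 0.870 per Mb (0.702 and 0.690). Distal sequence outside genes (1112 Mb) held 0.475 per Mb (0.386 and 0.371), a length that includes assembly gaps of unknown size. Within the hosts, 69 regions (8.16%) also overlapped a nested lncRNA gene, of which 39 were in both replicates, while 6.67% of the qualifying sequence lay under such genes.

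By chromosome, density was highest on chromosome 14, with 49 regions and 1.72 per Mb, first in each list. RAD51B held 11 of those and SLC25A21 8. Chromosome 10 was second in the union with 1.26 per Mb, but its lists differed, at 1.16 in replicate 1 (rank 2) and 0.757 in replicate 2 (rank 9). There 26 regions were in replicate 1 alone and 5 in replicate 2 alone. Chromosomes 6 (1.24) and 17 (1.23) came next, and the lowest were chromosomes 22 (0.321, 4 regions) and 12 (0.383, 18 regions). The input was not analysed, so the copy number of chromosomes in this line was not taken into account.

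Some of the host genes were sorted by function with 19 lists of 939 genes in all. Of these genes 853 could hold a region and 140 were hosts, so most of the 562 hosts were in no list. Because list members differ in length, density is given beside the counts, and the background is 5.22% of genes and 0.883 per Mb. The lists were chosen with earlier results of these data known, so a place above or below the background is a description only. They carry no test, and a gene can be in several.

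Lists of gene regulators were above that density. Transcription factors had 28 hosts of 110 genes (25.5%, 24 of them with a region in both replicates) and 2.37 per Mb. Their best regions were in FOXP2, PRDM16 (166 and 332), ZNF608 (237 and 328) and BCL11B (199 and 233), the last a zinc finger factor of T cells and neurons. Other chromatin regulators had 9 of 66 and 3.05 per Mb; of their 30 regions 17 were in both replicates. AUTS2 held 11 of the 30 (358 and 266 at its best), MECOM 6 (208 and 147), PRDM16 4 and RERE 4 (118 and 136). MECOM and PRDM16 were counted in the transcription factor list as well.

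Signalling lists were above it too in the union. The Wnt pathway had 5 hosts of 31 and 2.40 per Mb, with WNT5A (308 and 234), a Wnt ligand, RNF43 (115 and 153), which removes Wnt receptors, PRICKLE2 (70 and 91) of planar polarity and LEF1 (43, replicate 2 alone), a nuclear effector. The TGF-beta, BMP and Notch list had 4 of 39, at 1.17 per Mb in replicate 2 and 0.469 in replicate 1. Its members NOTCH2 (64) and TGFB2 (55) had peaks in replicate 2 alone. The Hippo list had only PTPN14 (269 and 204), a phosphatase that restrains YAP, and YAP1 itself.

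Lists of kidney, cytoskeletal, transport, kinase, RNA-binding and lipid transfer genes were also above the background in share of hosts and, in the union, in density. Kidney development genes had 6 of 30 and 1.28 per Mb, among them FGFR2 (185 and 222), ITGA8 (208 and 114), ROBO2 (165 and 75) and GDNF. Actin and focal adhesion genes had 18 of 62 and 1.32, with DST (196 and 205), a cytoskeletal linker, highest. Solute carriers had 10 of 50 and 1.78, and SLC25A21 held 8 of their 19 regions. Receptor and MAP kinases had 9 of 51 and 1.22, with DDR2 (314 and 146) and MAP2K5 (229 and 285) after MAP3K15. RNA-binding genes had 6 of 49 and 1.07, led by MSI2 (235 and 400), and lipid transfer genes 5 of 43 and 1.07, led by VPS13D.

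Several lists of long genes were below the background in density though above it in share of hosts. Common fragile site genes, of median length 1138 kb, had the highest share of hosts, 14 of 30 (46.7%, exact 95% interval 28.3 to 65.7%), at 0.834 per Mb, below the background. Cadherins and other adhesion genes had 12 of 56 and 0.787, with NTM (157 and 205) and PCDH9 (152 and 205) after CNTNAP2. Synaptic receptors and scaffolds had 9 of 53 and 0.768, led by FRMPD4 (397 and 146), NKAIN2 (245 and 254) and ERC2 (214 and 198). NKAIN2, placed in this list although it encodes a partner of the sodium pump, held 6 of the list's 21 regions. Ion channels had the lowest density of the lists with any host, 0.440 per Mb, with 5 hosts of 64 (7.81%, 2.59 to 17.3%, which includes the background). In this list KCNMA1, a calcium-activated potassium channel gene, had 4 regions, all in both replicates (247 and 461 at its best).

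Markers of other cell types gave 2 lists with few genes. Hepatocyte markers had 0 hosts of the 9 that could hold a region, with an exact 95% upper bound of 33.6%. Blood cell markers had 2 of 21 (9.52%, 1.17 to 30.4%) and 1.30 per Mb from 3 regions, in IKZF3 (108 and 206) and PAX5 (51 and 30). Both intervals include the background share. Membrane trafficking genes, below the background in density, had 5 of 63 (2.63 to 17.6%, which includes the background) and 0.816 per Mb, led by EXOC4 (184 and 193).

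Genes of the BAF complex itself held 4 regions, with 0 of them in both replicates. Of 23 genes that could hold one, 3 were hosts (13.0%), and the density was 2.21 per Mb, above the background in the union; in replicate 1 it was 0.551 and in replicate 2 1.65. ARID1A, the paralog of ARID1B, had 2 in replicate 2 alone, one scoring 64 and the other 37, and BICRA, of the noncanonical complex, 1 in replicate 1 alone (56). ARID1B had 1 in replicate 2 alone (chr6:157187371-157187744, score 47), 23 kb from a gene end. All 4 scores were below the medians of their lists, 74 and 75.

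**Figure D5:**
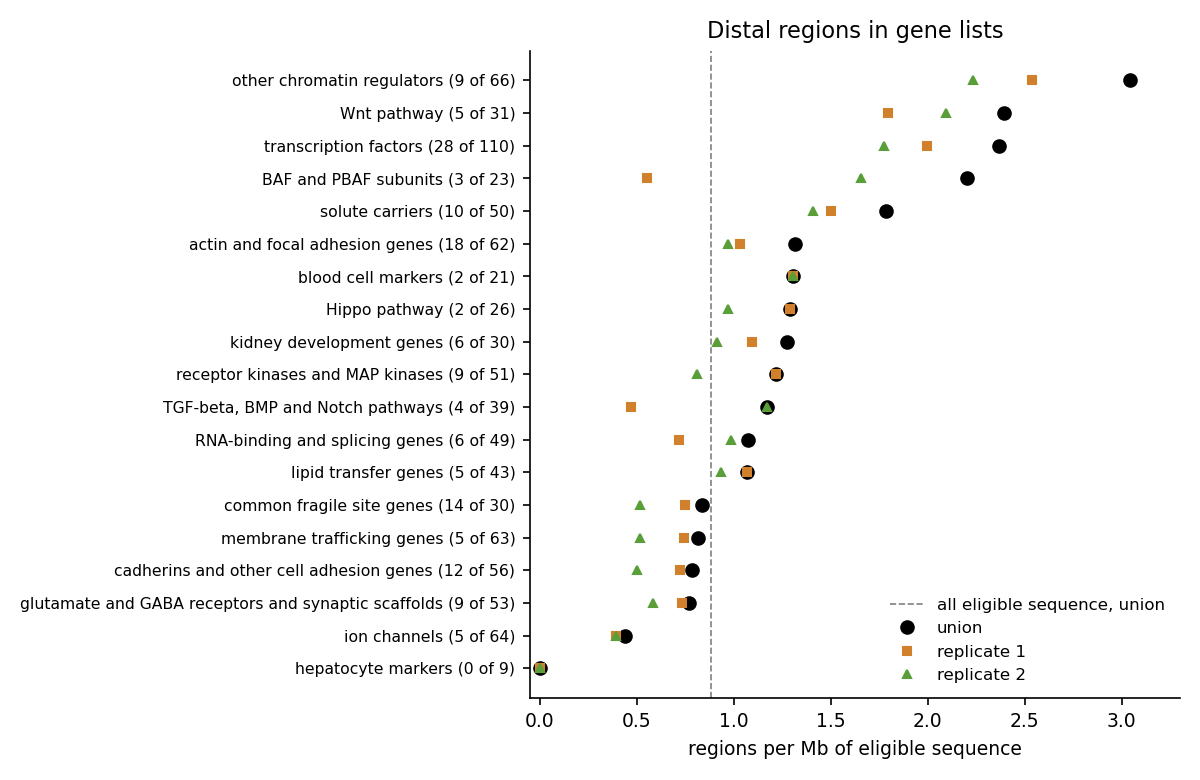
Distal intragenic regions per Mb of qualifying sequence for 19 lists of host genes, with hosts of genes that could hold a region in parentheses; black circles are the union, orange squares replicate 1, green triangles replicate 2, and the dashed line the union over all such sequence (0.883). In the union 13 lists lie above the line and 6 below, and BAF subunits differ most between replicates in proportion, with 0.551 and 1.65 per Mb.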

How the data were processed

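ARID1B ChIP-seq was made in 2 replicates, with 1 input, in HEK293FRT cells. The submitters' processing notes name build hg38, the peak caller MACS2 2.1.2, the aligner Bowtie2 2.3.4.1 and bcl2fastq 2.20.0.422. Settings, peak threshold, handling of duplicates, antibody and any use of the input were not given in the sources used here. The authors deposited 1 peak list per replicate, each peak with a score of unstated scale. The lists hold no counts, so depth is unknown. Intervals (exact Clopper-Pearson, 95%) reflect counting alone.

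Positions are given counting from 1. Peaks overlapping by 1 bp were merged. Genes came from a RefSeq table of GRCh38.p14, of which 58957 genes were kept, 19862 protein-coding; 831 on alternate or unplaced sequences were left out, and 4 had no coordinates and were not used. The table gives no exons, so exons and introns were not separated, and strand came from the table of starts. No genome was used, so motifs in the regions were not analysed here. A gene could hold a region, and its sequence counted as qualifying, where at least 1 base was more than 10000 bp from every protein-coding gene end. Position classes were compared with Fisher's exact test, two-sided, with Benjamini-Hochberg over 9 comparisons (threshold 0.05). Position classes, replicate support and the test between classes were checked on simulated peaks. Qualifying length was checked by counting bases on part of a chromosome.

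Members and gene lists were chosen with earlier results of these data known; 1 planned gene list is not reported here. Named are the 15 regions highest by the lower of their within-list percentiles, the 10 hosts with most regions and the density ranks of hosts with 4 or more, up to 4 hosts per list by best percentile, the 3 highest regions of each replicate alone, the 3 nearest each side of the limit, the 3 longest and 3 shortest hosts, and BAF subunits. Alternatives were 5000 and 20000 bp, peaks at or above the list median, an upper-quartile threshold, joining within 10 kb, 50% reciprocal overlap, centres within 200 bp, both-replicate regions only and each list alone; leaving out regions near listed starts was added after seeing the data. Python 3.11.15, SciPy 1.17.1, pandas 2.3.3, NumPy 2.4.6.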

Additional observations from a re-analysis of the deposited data

How the results depend on the processing

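No paired analysis was possible because the input has 1 sample and the 2 replicates form 1 group. The difference in replicate 2's share of single-replicate regions between distal intragenic regions and gene ends kept its direction and passed under 7 of 7 alternatives (odds ratio 0.0909 to 0.164; Fisher's exact test, adjusted p up to 3.70e-12). Shares found in both replicates never passed (adjusted p 0.186 to 0.786) and kept their direction. With the upper quartile as threshold, the share of high-scoring regions changed direction against lncRNA genes only (odds ratio 0.882) and against regions outside genes (1.05), with neither passing; the cause was not tested.

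The count of 846 fell to 431 with peaks at or above the list median, to 483 in both replicates, and to between 625 and 707 from 1 list. The share of hosts, 5.22%, was 4.41% beyond 5000 bp, 6.69% beyond 20000 bp, 3.07% above the median, 3.31% in both replicates and 4.1 to 4.51% from 1 list. Density, 0.883 per Mb, was 0.945 beyond 20000 bp, 0.450 above the median, 0.804 after joining, 0.504 in both replicates and 0.652 to 0.738 from 1 list. Hosts with 4 or more, 30 at first, numbered 18 after joining, 11 in both replicates, 15 without replicate 1 and 22 without replicate 2. Stricter or single lists hold fewer peaks by construction, and joining merges regions without removing peaks. Joining also took ZNF608 from 7 to 3 regions and SEMA3C from 5 to 2. Without replicate 1, PRKG1 had 0 regions, MECOM 3 and RAD51B 7. Leaving out regions within 10000 bp of a listed start left 800.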
